A study of Rattus norvegicus with 12 samples.

Results

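Serpins and cystatins are 2 families of protease inhibitors. They were read here together with the plasminogen activators Plau and Plat and the receptor Plaur, which several serpins control. Members were the protein coding genes of the deposited table whose names begin with Serpina to Serpini, the cystatins Cst3, Cst6, Cst8, Cstb and Csta, and Plau, Plat and Plaur. The rule found 50 such genes among 30560 genes in the table, of which 19988 are protein coding, and the counts below cover 49 of the 50. Cst9 was also in the rule and had no match in the table.

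The libraries are total RNA from retinas of 12 rats. A control group of 6 rats received 2 µL of PBS into the vitreous, and 6 rats received 2 µL of 20 mM NMDA, which activates 1 class of glutamate receptor, overexcites retinal neurons and is used to model the loss of ganglion cells in glaucoma. The labels name each library's rat and give no allele or further agent, and the sources used here give no strain, age, sex or time from injection to collection. A library is called here by its group and label number, such as PBS 5 or NMDA 3.

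Serpins trap serine proteases by a change of shape that destroys both partners, and a few of them have lost this activity. The best known target is plasmin formation: the activators Plat (tissue type) and Plau (urokinase type, held at the cell surface by Plaur) cut plasminogen to plasmin, and serpins such as Serpine2 and Serpini1 block them. Cystatins instead occupy the active site of cysteine proteases, chiefly the lysosomal cathepsins. In the retina, plasminogen activators have been studied as mediators of ganglion cell loss after overstimulation of glutamate receptors, and cystatin C, the product of Cst3, is an abundant secreted protein.

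Total counts ran from 16415611 to 34022023 per library. Summed rod markers, which define the tissue, lay between 38183 and 56532 CPM (counts scaled to a common library total) in every library. Ganglion cell markers summed to 683 to 822 CPM with PBS and 161 to 470 CPM with NMDA, with 7 of 8 lower (edgeR), and in bulk RNA fewer cells of a type and less RNA per cell cannot be told apart. Microglia and macrophage markers summed to 61.8 to 93.8 CPM with PBS and 114 to 239 CPM with NMDA, with 10 of 10 higher. NMDA 3 and PBS 5 were the highest of their groups for fibroblasts of sclera, choroid and ciliary stroma (364 and 199 CPM). They were also the highest for pericytes and smooth muscle (357 and 252) and for pigment epithelium (274 and 220). For lens the highest were NMDA 5 (2913 CPM) and PBS 1 (2712), and for surface and conjunctival epithelium NMDA 6 (60.5) and PBS 1 (59.0). NMDA 1 was the lowest of all 12 for lens (69.4 CPM), pigment epithelium (20.2) and those fibroblasts (47.5). NMDA 6 had 45.2 CPM of neutrophil markers, against 1.31 to 14.8 in the other libraries. Only 3 of these 9 markers were tested, of which 2 were higher. The others had too few counts, among them Prtn3 with 68 counts with PBS and 40 with NMDA, and Elane with 0 and 5.

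The activators, their receptor, the complement inhibitor Serping1 and the collagen chaperone Serpinh1 rose after NMDA, while the neuronal serpin Serpini1 and the secreted cystatin Cst3 fell. The call for the activator Plat was lost in 7 of 22 alternative fits, and the others named here kept theirs. Of the 49 members, 19 had enough counts to be tested, another 19 had only scattered counts and 11 had none in any library. Of the 19 tested, 8 were higher with NMDA, 4 were lower and 7 did not pass (edgeR quasi-likelihood test, Benjamini-Hochberg adjustment over 16260 genes, threshold 0.05). Over all genes tested, 37.9% changed, 20.4% higher and 17.5% lower. Plaur and Plau, 2 of the 8, passed the filter on low counts only through the NMDA group, so that part of their difference was built into their being tested. The median log2 fold change (NMDA minus PBS) of the 19 tested was 0.30, and that of all genes 0.01. In 5 of the 19 tested the NMDA and PBS libraries did not overlap, as in 18.1% of all genes. With scaling by library size only, 64.6% of all changed genes were higher against 53.8% with the scaling used here, and the all-gene median was 0.06.

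**Figure D1:**
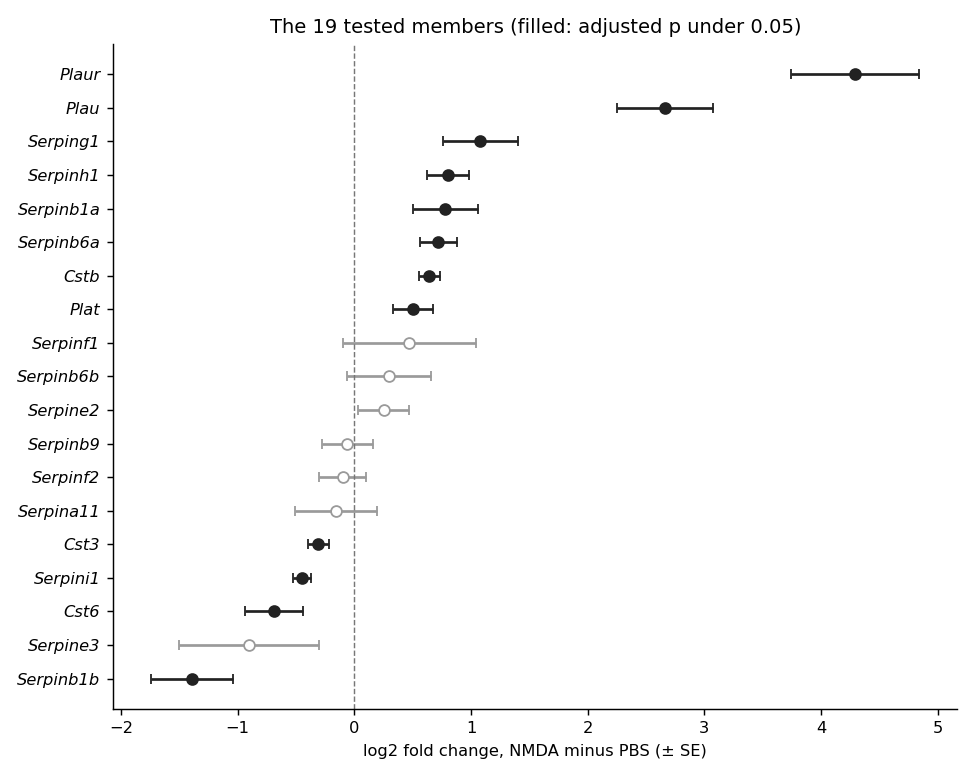
The log2 fold change (NMDA minus PBS, horizontal axis) of each of the 19 tested members, with its SE as a bar and the members ordered by fold change; filled points passed the edgeR threshold of 0.05. The receptor gene Plaur lies farthest to the right at 4.29 and Serpinb1b farthest to the left at -1.39.

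By role, the 3 activator and receptor genes were all tested and all higher, Plaur and Plau past the filter only through the NMDA group. Among all genes tested, 20.4% were higher and 17.5% lower, and the counts of each role are to be read against those shares. Of 10 serpins that act on plasminogen activation, coagulation or complement, 5 were tested, 1 was higher, 1 was lower and 3 did not pass. Of 4 serpins outside clade B without inhibitory activity, 2 were tested and 1 was higher. Of 17 intracellular serpins of clade B, 5 were tested, 2 higher, 1 lower and 2 not past the threshold. Of 5 cystatins, 3 were tested, 1 higher and 2 lower. Of the 10 other serpins of clade A, 1 was tested and it did not pass.

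Plaur encodes the surface receptor that holds urokinase, and it had the largest fold change of the members. Its level was 0 in the lowest PBS library, 0.192 CPM at the median and 0.222 in the highest, against 1.46, 2.15 and 5.24 CPM with NMDA. The groups did not overlap, and NMDA 6 was the highest. NMDA 6 also had the highest sums of microglia and macrophage markers (239 CPM) and of neutrophil markers (45.2 CPM), whose part in the result was not tested. The gene (ENSRNOG00000037931, chromosome 1, 80050324 to 80068595) averaged 0.134 ± 0.104 CPM with PBS and 2.66 ± 1.40 with NMDA (SD, n = 6 each), and its log2 fold change was 4.29 ± 0.55 (SE; edgeR adjusted p = 0.000142). No PBS library reached the level of the filter, and all 6 NMDA libraries did. Gene positions follow the deposited table, and the sources used here do not name its genome build.

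Plau, the urokinase gene (ENSRNOG00000010516, chromosome 15, 3456232 to 3462775), had 0.185, 0.367 and 1.47 CPM in the lowest, median and highest PBS library and 2.15, 4.05 and 4.67 CPM with NMDA. Again no NMDA library reached down to a PBS library, and PBS 5 was the highest control. Its mean rose from 0.593 ± 0.486 to 3.82 ± 0.913 CPM (SD, n = 6 each; log2 fold change 2.66 ± 0.41, edgeR adjusted p = 0.000374), and the log2 fold change was 3.15 without PBS 5. Only 3 PBS libraries reached the level of the filter on low counts, against all 6 NMDA libraries.

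Plat, the tissue-type activator gene (ENSRNOG00000019018, chromosome 16, 69240585 to 69268223), was far more abundant and moved less. It had 21.6, 28.7 and 33.2 CPM in the lowest, median and highest PBS library and 29.1, 35.1 and 53.8 CPM with NMDA. The ranges overlapped, and NMDA 3 and NMDA 6 stood above the other NMDA libraries. The mean rose from 27.6 ± 5.16 to 39.1 ± 9.78 CPM (SD, n = 6 each; log2 fold change 0.50 ± 0.17, edgeR adjusted p = 0.0316). The call was lost without NMDA 3 (0.39, edgeR adjusted p = 0.0613), NMDA 6 (0.43, adjusted p = 0.0723), PBS 2 (adjusted p = 0.0687), PBS 3 (adjusted p = 0.0584) or PBS 6 (adjusted p = 0.0678).

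**Figure D2:**
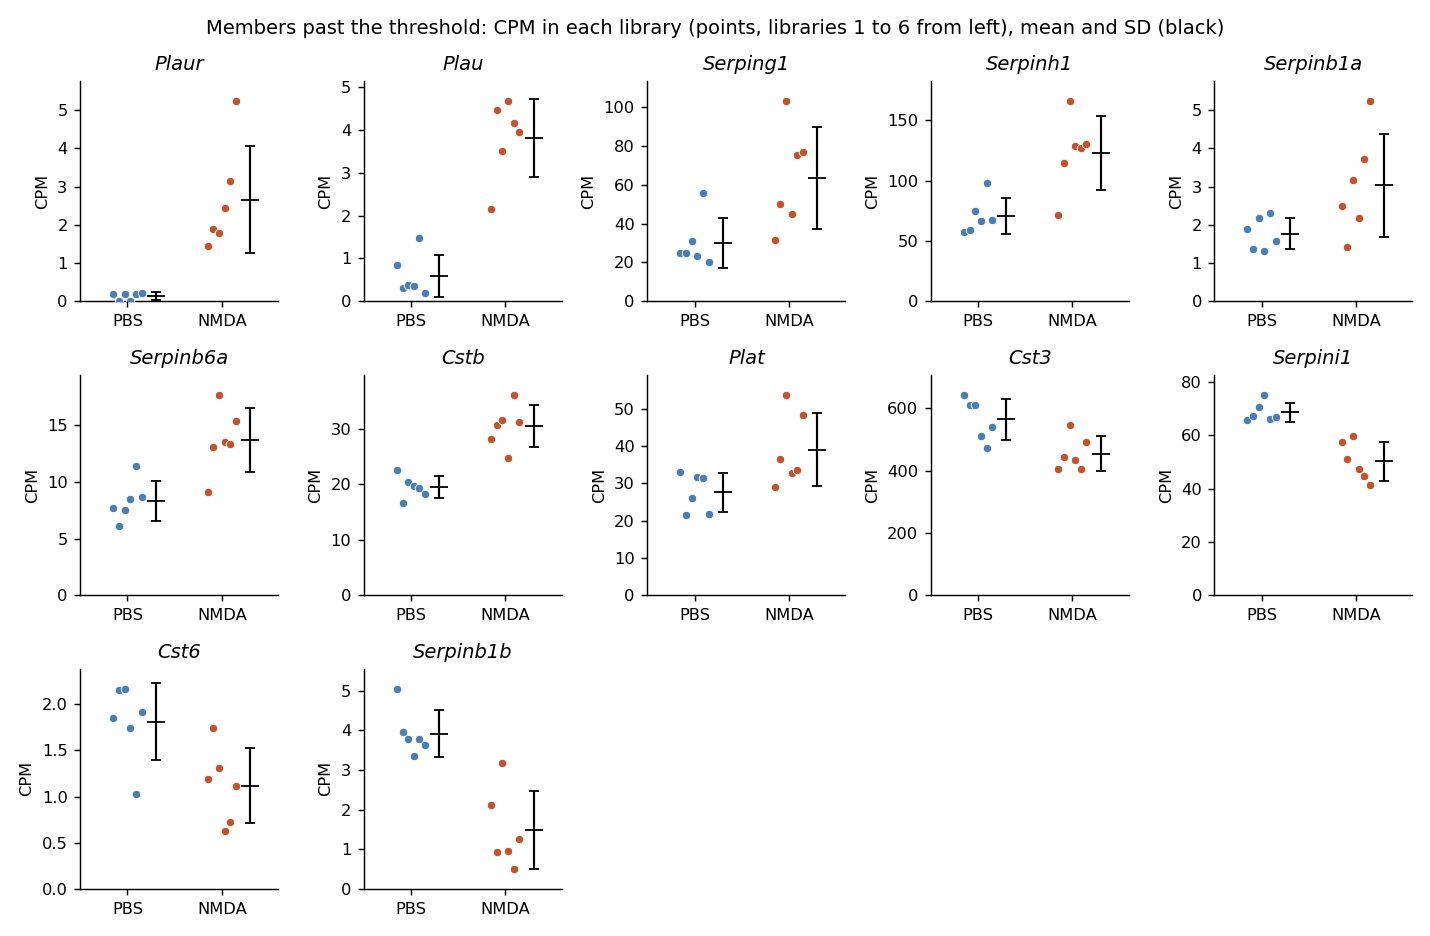
CPM (vertical axes, each starting at 0) of the 12 members that passed the threshold, 1 point per library with PBS in blue and NMDA in red, and the group mean with its SD in black. Plaur, Plau and Cstb have every NMDA point above every PBS point, Serpini1 and Serpinb1b have every NMDA point below, and the other panels overlap.

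Promoter sequence is shown for the 4 risen members in which a motif search found a match (receptor, activator, collagen chaperone, cytosolic cystatin). That each of the 4 holds a match is therefore no result. Sequences are the 250 bases before the annotated start in RefSeq on GRCr8, a build other than that of the expression table's positions, for which 40 of the 49 members and 16 of the 19 tested had an entry. They are written 5′ to 3′ on the gene's strand, and capitals mark the match. The windows are chr1:89181113-89181362 (plus strand) for Plaur, chr15:3511988-3512237 (minus) for Plau, chr1:163062977-163063226 (minus) for Serpinh1 and chr20:10247200-10247449 (minus) for Cstb.
Plaur: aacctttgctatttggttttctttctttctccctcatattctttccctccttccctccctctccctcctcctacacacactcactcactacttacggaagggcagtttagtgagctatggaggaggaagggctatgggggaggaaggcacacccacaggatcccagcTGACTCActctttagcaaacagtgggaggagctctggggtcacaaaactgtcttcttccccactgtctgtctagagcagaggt
Plau: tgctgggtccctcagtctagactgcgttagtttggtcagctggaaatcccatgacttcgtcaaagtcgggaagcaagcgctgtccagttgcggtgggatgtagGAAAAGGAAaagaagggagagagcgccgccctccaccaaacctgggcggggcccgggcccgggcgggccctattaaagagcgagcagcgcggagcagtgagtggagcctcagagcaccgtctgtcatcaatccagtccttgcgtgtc
Serpinh1: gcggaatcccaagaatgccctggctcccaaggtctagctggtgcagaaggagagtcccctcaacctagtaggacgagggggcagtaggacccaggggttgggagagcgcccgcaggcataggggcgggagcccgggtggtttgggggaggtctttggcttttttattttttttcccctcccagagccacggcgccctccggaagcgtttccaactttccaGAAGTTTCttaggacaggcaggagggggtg
Cstb: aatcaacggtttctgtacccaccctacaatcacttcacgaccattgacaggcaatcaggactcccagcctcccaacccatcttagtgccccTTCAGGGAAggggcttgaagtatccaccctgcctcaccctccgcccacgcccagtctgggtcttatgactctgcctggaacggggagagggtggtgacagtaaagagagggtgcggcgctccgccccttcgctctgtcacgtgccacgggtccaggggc
The letters searched, on both strands, were TGANTCA for AP-1, TTCNNNGAA for STAT factors, GAAANNGAA for the interferon response and GAANNTTC for heat shock factors. Among the 16, Plaur alone had the AP-1 letters, whose last base lies 77 bases before the start, and 6.34% of 33469 promoter windows of this length hold them. The interferon response letters were found in Plau, Serpinb1b and Serpinb9 and in 8.12% of all windows. The heat shock letters were in Serpinh1, where they end 23 bases before the start, and in Serpinb1b, against 7.23% of all windows. Cstb and Serpina11 had the STAT letters, found in 7.67% of all. Of these members Serpinb1b fell, and Serpinb9 and Serpina11 did not pass the test. The sequences shown are those of all risen members with a match. Plat, Serping1, Serpinb6a and Serpinb1a also rose and had no match, or no entry to search. A match is a description of the letters in the window and shows no binding.

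Among the inhibitors of plasminogen activation, Serpini1 fell, and Serpine2 and Serpinf2 did not pass. Serpini1 encodes neuroserpin, a secreted neuronal inhibitor of the tissue-type activator (ENSRNOG00000010248, chromosome 2, 160346758 to 160433135). It had 65.9, 67.2 and 75.2 CPM in the lowest, median and highest PBS library and 41.2, 49.2 and 59.8 CPM with NMDA. The controls were close together and no NMDA library reached them. Its mean fell from 68.7 ± 3.62 to 50.3 ± 7.32 CPM (SD, n = 6 each; log2 fold change -0.45 ± 0.08, edgeR adjusted p = 0.00117). Ganglion cell markers were also lower in every NMDA library, at 161 to 470 CPM against 683 to 822, and their part in the result was not tested.

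Serpine2 encodes protease nexin 1, a glial inhibitor of thrombin and the activators (ENSRNOG00000015461, chromosome 9, 81124804 to 81188826). It had 6.27, 7.72 and 8.57 CPM in the lowest, median and highest PBS library and 6.48, 7.21 and 16.9 CPM with NMDA, where the highest value was that of NMDA 3. The log2 fold change of 0.25 ± 0.22 (edgeR adjusted p = 0.413) was -0.03 without NMDA 3. Serpine3, a little studied relative, had a log2 fold change of -0.90 ± 0.60 (edgeR adjusted p = 0.265), and Serpinf2, the plasmin inhibitor alpha 2-antiplasmin, one of -0.10 ± 0.20 (adjusted p = 0.740).

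Serping1, the inhibitor of the complement proteases C1r and C1s and of plasma kallikrein (ENSRNOG00000007457, chromosome 3, 69842739 to 69852034), rose. It had 20.2, 24.8 and 55.7 CPM in the lowest, median and highest PBS library and 31.5, 62.4 and 103 CPM with NMDA. PBS 5 was the control at 55.7 and the next was at 31.1, while NMDA 3 was the highest of all libraries and NMDA 1 the lowest with NMDA. The mean went from 30.0 ± 13.1 to 63.5 ± 26.2 CPM (SD, n = 6 each; log2 fold change 1.08 ± 0.32, edgeR adjusted p = 0.0188). Without NMDA 3 the log2 fold change was 0.89, and without PBS 5 it was 1.36. PBS 5 and NMDA 3 were also the highest of their groups in fibroblast, pericyte and pigment epithelium markers, whose part in the result was not tested. Of the other members with this role, the antithrombin gene Serpinc1, the heparin cofactor gene Serpind1 and Serpina10 had at most 2 counts in a library, and Serpina5 and Serpini2 had none.

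Serpins that are not protease inhibitors were led by Serpinh1, which encodes HSP47, the collagen chaperone of the endoplasmic reticulum (ENSRNOG00000016831, chromosome 1, 153643510 to 153650801). It had 57.8, 67.2 and 98.1 CPM in the lowest, median and highest PBS library and 71.3, 128 and 166 CPM with NMDA. PBS 5 was the control nearest to the NMDA group, and NMDA 1 was the only NMDA library below it. The mean rose from 70.8 ± 14.8 to 123 ± 30.7 CPM (SD, n = 6 each; log2 fold change 0.80 ± 0.18, edgeR adjusted p = 0.00465). With PBS 5 and NMDA 3 both left out, the gene was still called, as were all risen members except Plat and Serpinb1a.

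Serpinf1 encodes PEDF, a secreted factor of the pigment epithelium that restrains vessel growth (ENSRNOG00000003172, chromosome 10, 60249708 to 60262646). It had 1.06, 3.48 and 8.56 CPM in the lowest, median and highest PBS library and 0.882, 5.94 and 9.12 CPM with NMDA. The groups covered nearly the same range, and the difference did not pass (0.47 ± 0.57, edgeR adjusted p = 0.562). The hormone carriers Serpina6 and Serpina7 had no count and 1 count in all.

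Some of the intracellular serpins of clade B protect cells from their own granule proteases, and the genes of the clade lie mainly in 2 clusters. All 5 that were tested lie in the cluster on chromosome 17 (30871468 to 31599102), which holds 7 members: 2 were higher, 1 was lower and 2 did not pass. Serpinb6a, a cytosolic inhibitor of trypsin-like proteases (ENSRNOG00000017962, chromosome 17, 30871468 to 31014427), had 6.12, 8.11 and 11.4 CPM in the lowest, median and highest PBS library and 9.08, 13.5 and 17.7 CPM with NMDA. Only NMDA 1 lay below the highest control, which was PBS 5. The mean rose from 8.31 ± 1.77 to 13.7 ± 2.85 CPM (SD, n = 6 each; log2 fold change 0.72 ± 0.16, edgeR adjusted p = 0.00385). Its span in the table overlaps those of Nqo2 and Ripk1, and no source used here gives the strand setting of the counts, so its value is uncertain.

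Serpinb1a and Serpinb1b are rat copies of the gene for the leukocyte elastase inhibitor, and their values went opposite ways. Serpinb1b (ENSRNOG00000034229, chromosome 17, 31320556 to 31327935) had 3.34, 3.77 and 5.05 CPM in the lowest, median and highest PBS library and 0.494, 1.10 and 3.17 CPM with NMDA. All NMDA libraries lay below all controls, and NMDA 3 was the one nearest to them. The mean fell from 3.92 ± 0.591 to 1.48 ± 0.985 CPM (SD, n = 6 each; log2 fold change -1.39 ± 0.35, edgeR adjusted p = 0.00735). Serpinb1a (ENSRNOG00000016581, chromosome 17, 31590677 to 31599102) had 1.31, 1.73 and 2.30 CPM with PBS and 1.42, 2.83 and 5.24 CPM with NMDA, in the same order. The groups overlapped, and NMDA 6 was the highest, as it was for neutrophil markers, whose part in the result was not tested. Its mean rose from 1.77 ± 0.414 to 3.03 ± 1.34 CPM (SD, n = 6 each; log2 fold change 0.78 ± 0.28, edgeR adjusted p = 0.0410), and leaving out any 1 of NMDA 3, NMDA 5, NMDA 6, PBS 1, PBS 2, PBS 4 or PBS 6 ended that call, with adjusted p up to 0.102 (without NMDA 6). How reads shared by near-identical copies were counted was not given, so both values are uncertain.

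Serpinb9, the inhibitor of granzyme B, had 11.4 ± 1.32 CPM with PBS and 10.9 ± 4.24 with NMDA (SD, n = 6 each; log2 fold change -0.06 ± 0.22, edgeR adjusted p = 0.853). Its lowest NMDA library, NMDA 6, had 5.27 CPM and its highest, NMDA 3, had 18.0, so the spread within the NMDA group was wider than that of the controls. Serpinb6b did not pass either (0.30 ± 0.36, edgeR adjusted p = 0.552).

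The second cluster of clade B, on chromosome 13 (22985557 to 23650835), holds 10 members, none of which passed the filter, and 2 of which had no count. Serpinb8, an inhibitor of furin-like proteases, was the member below the filter with the most counts. It had 10 counts over 5 PBS libraries and 131 over all 6 NMDA libraries, a pooled level of 0.0659 and 0.748 CPM, and every NMDA library lay above every PBS library. In a fit with no filter on low counts, read for these members after the data were seen, its edgeR adjusted p was 0.000271. Serpinb2, which encodes an inhibitor of urokinase, had no count with PBS and 21 counts over 5 NMDA libraries (edgeR adjusted p = 0.0227 without a filter). Its pooled NMDA level was 6.07-fold a floor of 3 counts over the PBS group (0.0198 CPM), a value that leaves out the spread between rats. These low counts carry large counting error. Serpinb10 had 9 counts with PBS and 29 with NMDA, and Serpinb5 had 29 and 18, neither past the threshold in that fit (adjusted p = 0.148 and 0.596).

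Clade A, the family of antitrypsin and antichymotrypsin, is made mainly in liver, and its cluster on chromosome 6 (122756108 to 123312529) was nearly silent in these libraries. Of the 13 members there, 7 had no count in any library and 1, Serpina11, was tested (-0.16 ± 0.35, edgeR adjusted p = 0.757). Serpina3n, an acute phase serpin known from reactive astrocytes, had no count in any PBS library and 29 counts in 4 of the 6 NMDA libraries, with at most 12 in 1 library. The pooled NMDA level was 8.38-fold the floor of 3 counts over the PBS group, a value that leaves out the spread between rats. Without a filter, the edgeR adjusted p of Serpina3n was 0.0357. Serpina1, the antitrypsin gene, had 13 counts with PBS and 20 with NMDA. In all, 3 of the 19 members with scattered counts passed without a filter: Serpinb8, Serpinb2 and Serpina3n. Markers of liver, as a source of plasma proteins, summed to 40.8 to 57.2 CPM with PBS and 12.8 to 40.5 CPM with NMDA, with Apoa2 at 0 in every library. Of the 4 tested, 1 was higher and 2 were lower. The list shares Ttr with the pigment epithelium markers, so its sum does not stand for liver alone.

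Of the 3 tested cystatins, the cytosolic Cstb rose, and the secreted Cst3 and Cst6 fell. Cstb, or cystatin B, restrains cathepsins that leak from lysosomes (ENSRNOG00000001201, chromosome 20, 10245462 to 10247526). It had 16.7, 19.6 and 22.7 CPM in the lowest, median and highest PBS library and 24.8, 31.0 and 36.2 CPM with NMDA. The groups did not overlap, and both were tight. Its mean rose from 19.5 ± 2.04 to 30.5 ± 3.80 CPM (SD, n = 6 each; log2 fold change 0.64 ± 0.09, edgeR adjusted p = 0.000226).

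Cst3 (ENSRNOG00000005195, chromosome 3, 136336920 to 136340822) was the most abundant member. It had 472, 574 and 643 CPM in the lowest, median and highest PBS library and 404, 439 and 547 CPM with NMDA. The ranges overlapped: NMDA 3 and NMDA 6 lay above PBS 5, the lowest control. The mean fell from 564 ± 66.7 to 454 ± 55.6 CPM (SD, n = 6 each; log2 fold change -0.31 ± 0.09, edgeR adjusted p = 0.0162). Summed rod markers were 38183 to 53997 CPM with NMDA and 53180 to 56532 with PBS, and those of Müller glia 3650 to 4677 and 4740 to 6475, and their part in the result was not tested.

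Cst6, or cystatin M, an epithelial inhibitor of legumain and cathepsins (ENSRNOG00000020455, chromosome 1, 202655322 to 202657030), was low. It had 1.03, 1.88 and 2.17 CPM in the lowest, median and highest PBS library and 0.626, 1.15 and 1.74 CPM with NMDA. PBS 5 was the lowest control and stood inside the NMDA range. The mean fell from 1.81 ± 0.417 to 1.12 ± 0.405 CPM (SD, n = 6 each; log2 fold change -0.69 ± 0.25, edgeR adjusted p = 0.0466). That call was lost when any 1 of NMDA 1, NMDA 4, NMDA 5, NMDA 6, PBS 1, PBS 2, PBS 3, PBS 4 or PBS 6 was left out, with adjusted p up to 0.0981 (without NMDA 5). Csta, the other cytosolic cystatin, had 10 counts with PBS and 3 with NMDA, and Cst8 had none.

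Levels can be set against each other only per length, so deposited FPKM (counts scaled for gene length and library total) were used to order the members. With PBS, Cst3 stood first at 144 ± 16.5 FPKM (SD, n = 6), followed by Serpinh1 at 33.7 ± 7.25, Serpini1 at 23.2 ± 1.29, Serping1 at 16.1 ± 7.09, Cstb at 15.6 ± 1.61 and Plat at 9.44 ± 1.78. Among these and the next member, Serpinb1b at 3.38 ± 0.498 FPKM, neighbours' ranges over libraries overlapped only between Serpini1 and Serping1 and between Serping1 and Cstb. All neighbours further down the order overlapped, and the last places went to Plau at 0.136 and Plaur at 0.0313 FPKM. With NMDA, Cst3 stayed first at a mean of 120 FPKM (104 to 144) and Serpinh1 came next at 60.9 ± 15.4 (SD, n = 6), with no overlap between them. Serping1 at 35.2 ± 14.7, Cstb at 25.2 ± 3.39, Serpini1 at 17.5 ± 2.35 and Plat at 13.9 ± 3.51 FPKM followed, and later neighbours overlapped except Plat and Serpinb6a at 5.41 ± 1.15. Serpini1, ahead of Serping1 and Cstb with PBS, stood behind both with NMDA.

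**Figure D3:**
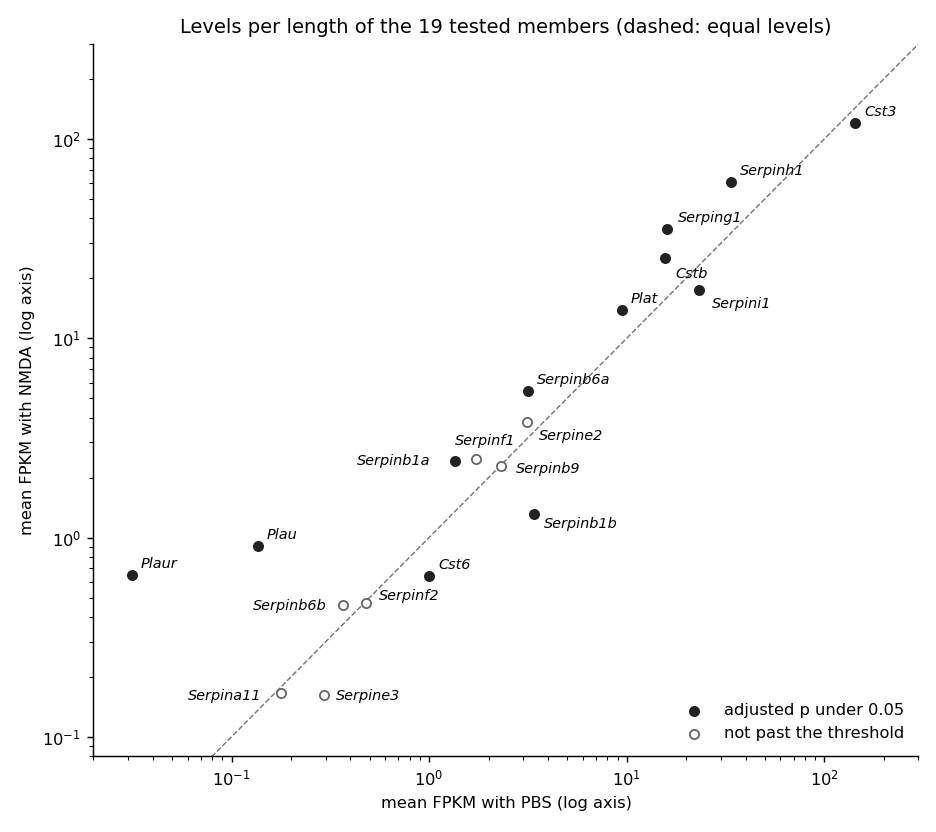
Mean FPKM of the 19 tested members with PBS (horizontal, log axis) and with NMDA (vertical, log axis), 1 point per gene; filled points passed the edgeR threshold and the dashed line marks equal levels. Plaur and Plau lie far above the line at the low end, and Cst3, the highest at 144 and 120 FPKM, lies just below it.

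Inhibitors were then set against a protease each of them blocks, as the ratio of their FPKM in a library, and 6 of 8 pairs computed are given. These ratios were not part of the planned tests. Group means of the log2 ratio were compared by two-sided exact permutation tests over 924 assignments, whose smallest possible p is 0.00216, with Benjamini-Hochberg adjustment over the 8 pairs. The ratio of Serpini1 to Plat was 1.96, 2.51 and 3.08 in the lowest, median and highest PBS library and 0.836, 1.34 and 1.95 with NMDA, with no overlap. The log2 difference was -0.95 (exact permutation p = 0.00216, adjusted p = 0.00577). The transcript of the neuronal inhibitor was lower relative to that of its target in every NMDA library than in any PBS library. The closest were NMDA 1 at 1.95 and PBS 1 at 1.96. Each ratio combines the levels of an inhibitor and a protease gene whose changes are given separately, so it is no independent evidence of those changes.

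Both ratios of Cst3 to a cathepsin were lower with NMDA, and neither ratio of Cstb passed. Cst3 to Ctsb was 0.639, 0.851 and 0.961 in the lowest, median and highest PBS library and 0.362, 0.444 and 0.611 with NMDA (log2 difference -0.85). Cst3 to Ctsl was 2.18, 3.67 and 5.52 with PBS and 1.16, 1.47 and 2.12 with NMDA (log2 difference -1.34). Neither ratio overlapped between groups, and both had an exact permutation p of 0.00216 and an adjusted p of 0.00577. Cstb to Ctsb, with medians of 0.0890 and 0.0980 with PBS and NMDA, did not pass (log2 difference 0.10, exact permutation p = 0.366, adjusted p = 0.366), and Cstb to Ctsl fell short of the threshold (-0.39, exact permutation p = 0.0693, adjusted p = 0.0924). That last ratio passed without PBS 5 (-0.50, adjusted p = 0.0346) or without NMDA 1 (-0.50, adjusted p = 0.0260). Whether the ratios of Cst3 and Cstb changed by different amounts was not tested. The ratio of Serping1 to C1s, the protease it blocks in the first complement component, was 3.91, 5.15 and 7.43 with PBS and 2.72, 3.63 and 4.25 with NMDA (log2 difference -0.58, exact permutation p = 0.00649, adjusted p = 0.0130).

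**Figure D4:**
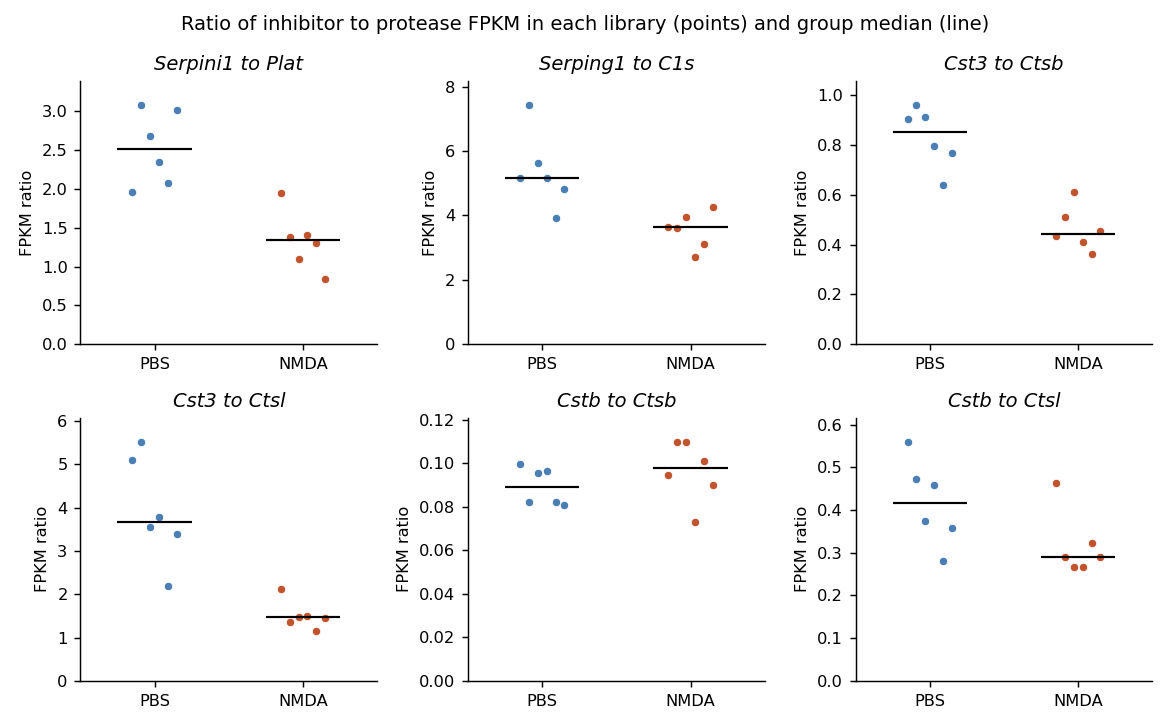
Ratio of inhibitor to protease FPKM (vertical axes, starting at 0) in each library for 6 pairs, with the group median as a line. Serpini1 to Plat and Cst3 to both cathepsins have every NMDA library below every PBS library, while Cstb to Ctsb lies between 0.0732 and 0.110 in all libraries.

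The proteins these inhibitors act with or upon were read as lists. Of 35 partners of the plasminogen activators, 25 were tested, 10 were higher, 1 was lower and 14 did not pass, with a median log2 fold change of 0.25 against 0.01 for all genes. Among all genes tested, 20.4% were higher and 17.5% lower, and for each of these lists the counts are to be read against those shares. Of the higher partners 3 (Procr, Mmp3 and Mmp9), and of the higher cysteine proteases 1 (Ctsw), passed the filter on low counts only through the NMDA group; these were named after their values were seen. The 4 with the smallest adjusted p were S100a10 (1.87 ± 0.13) and Anxa2 (1.32 ± 0.22), which together form a plasminogen receptor, the protease-activated receptor gene F2rl1 (1.77 ± 0.27) and the membrane metalloprotease gene Mmp14 (0.69 ± 0.13; edgeR adjusted p from 5.04e-06 to 0.00103). The 1 that fell was Eno1 (-0.26 ± 0.05, edgeR adjusted p = 0.00232), named after its value was seen. Plg, the gene of plasminogen itself, had 10 counts with PBS and 17 with NMDA, at most 6 in a library, and was not tested.

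Of 12 genes listed as cysteine proteases that cystatins can inhibit, with the protease-like Tinagl1 among them, all were tested. Of these, 6 were higher, 1 was lower and 5, Tinagl1 included, did not pass, with a median of 0.45. The cathepsin genes Ctsb (0.54 ± 0.07), Ctsc (1.57 ± 0.21), Ctsz (1.72 ± 0.27) and Ctsl (1.02 ± 0.18) had the smallest adjusted p (edgeR, 0.000126 to 0.00110). Ctsf, named after its value was seen, fell (-0.40 ± 0.08, edgeR adjusted p = 0.00185). Cathepsins are abundant in microglia and macrophages, whose markers were 10 of 10 higher, and the part of these cells in the result was not tested.

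Of 29 serine proteases that serpins can inhibit, 26 were in the table and 8 were tested, of which 4 were higher and none lower, with a median of 0.72. They were the complement genes C1r (1.53 ± 0.32) and C1s (1.55 ± 0.38), Htra1 (0.60 ± 0.14) and the coagulation factor gene F10 (1.62 ± 0.43; edgeR adjusted p from 0.00299 to 0.00960). Only 2 PBS libraries reached the level of the filter for F10, against all 6 with NMDA. Among the 18 that were not tested were the neutrophil elastase gene Elane, with 5 counts in all NMDA libraries together, and Ctsg, with none. Of 38 protease inhibitors of other families, 34 were in the table and 21 were tested, with 4 higher, 4 lower, 13 not past the threshold and a median of -0.13. Timp1, an inhibitor of metalloproteases (2.94 ± 0.42), and Cst7, a cystatin of immune cells outside the rule (3.85 ± 0.78), rose, and Xiap, which blocks caspases (-0.42 ± 0.08), and the proteoglycan gene Spock3 (-0.97 ± 0.19) fell (edgeR adjusted p from 0.000360 to 0.00206). Cst7 passed the filter only through the NMDA group, with 1 PBS library at its level, so part of its difference was built in. Some genes of these lists were known from earlier results to change in these libraries, so the lists are no independent evidence of a direction.

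Some libraries stood at the end of their group in many members. Among the 8 that rose, NMDA 1 was the lowest NMDA library in 6, and the other lowest values were those of NMDA 2 and NMDA 4, 1 each. NMDA 3 was the highest NMDA library in 4 of the 8 and PBS 5 the highest control in 5. The same 3 libraries stood at the ends of the marker sums for fibroblasts and pigment epithelium given above. For lens and for surface and conjunctival epithelium, other libraries were the highest. Rod markers in NMDA 1 summed to 53997 CPM, within the PBS range of 53180 to 56532, against 38183 to 46313 in the other NMDA libraries. Ganglion cell markers summed to 426 CPM in NMDA 1 and 470 in NMDA 3, against 161 to 224 in the other NMDA libraries. The part of these differences in the members' spread was not tested.

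**Figure D5:**
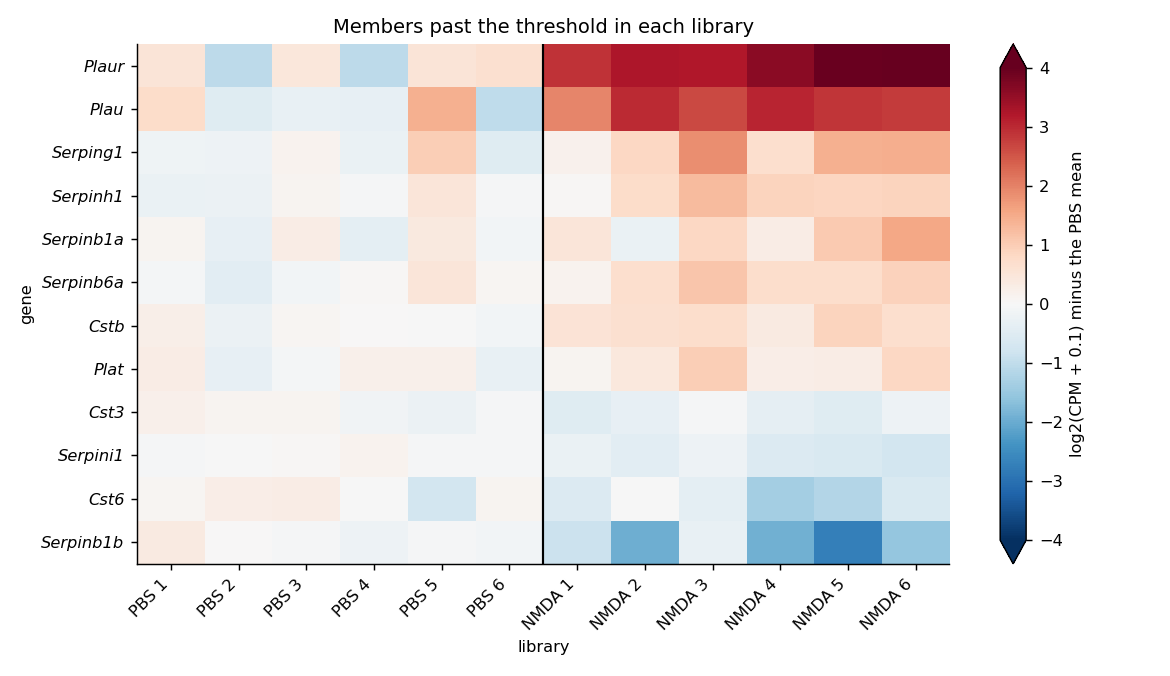
Level of each of the 12 members that passed the threshold (rows) in each library (columns) as log2(CPM + 0.1) minus the gene's mean over the PBS libraries, blue below and red above, with the darkest red at 4 and beyond. The NMDA columns are red for Plaur and Plau in all 6 libraries, and NMDA 1 is paler than the other NMDA columns for Plau, Serping1 and Serpinh1.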

How the data were processed

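The deposited table gave, for each of 12 libraries (1 per rat, 6 per group), whole counts per gene and FPKM, per the file headers. Counts were deposited without further scaling. The authors' FPKM are these counts over gene length and library total: in 9871 genes with 200 or more counts throughout, the implied length had a relative spread of at most 4.09e-06. The submitters' processing notes name RSEM 1.3.1, Bowtie2 and DESeq2 1.4.5 without roles. The sources used here give no genome build, strand setting or treatment of reads that match several places.

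The 16260 genes that passed filterByExpr (minimum count 10, minimum total 15) were scaled by TMM (factors 0.976 to 1.03), and edgeR 4.0.16 in R 4.3.3 gave two-sided robust quasi-likelihood tests. The group was the only term, p-values were adjusted over all genes tested by Benjamini-Hochberg, and the threshold was 0.05. CPM are counts relative to the TMM-scaled library total, and the SE of a fold change comes from its F statistic. On simulated counts for this comparison (16144 genes tested), 58.8% of log2 changes of 0.5, 84.4% of 1 and 98.5% of 2 were recovered, and 3.01% of calls were false. These changes were put into 68, 64 and 68 genes, a far smaller share than the 37.9% of genes called in the data. The rates therefore need not hold for the data.

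There were 22 alternatives: other scaling or filters, DESeq2 1.42.0, limma 3.58.1 (voom with quality weights, or trend on log2(FPKM + 1) and log2(FPKM + 0.1)), a block on the number in the labels, each of 12 libraries left out, and PBS 5 and NMDA 3 left out together. The FPKM ratios and their tests were not among the planned tests. Leaving out libraries from these ratios, and reading the fit without a filter for members below it, were added after seeing the data. The floor of 3 counts covers counting error in the PBS group only. A fold over this floor takes the pooled NMDA counts as exact and is no lower bound. The members, lists and tests were chosen with earlier results of these data known. Of the 50 members found, 1 is not reported here. The rule for named genes took in any case members such as Serpina3n, Serpine2, Serpinf1, Serping1, Serpinh1, Serpini1, Cst3, Cstb, Plat, Plau and Plaur, every other tested member that passed, and up to 4 genes with the smallest adjusted p from each of 4 lists. Promoters come from RefSeq (GRCr8).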

Additional observations from a re-analysis of the deposited data

Results flagged for a closer look

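In 4 of the 38 groups of 6 libraries examined (19 tested members, 2 groups each), 1 library stood far from the others by Dixon's test, which by chance happens in about 1 group in 20. Serpine2 was at 16.9 CPM in NMDA 3, against 9.29 in the next NMDA library. Serping1 was at 55.7 CPM in PBS 5, against 31.1 in the next control. Cst6 was at 1.03 CPM in PBS 5, the lowest control, with the next at 1.74. Serpinb1b was at 5.05 CPM in PBS 1, the highest control, with the next at 3.96. NMDA 3 and PBS 5 also had the highest fibroblast marker sums of their groups (364 and 199 CPM).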

How the results depend on the processing

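Of the 12 members called, 9 kept their direction and call under every alternative that gave a value, and Plat, Serpinb1a and Cst6 lost the call under some and kept the direction. With the filter of 10 CPM in 6 libraries, which tests fewer genes, 5 members were higher in place of 8, 2 were lower in place of 4, and 6 partners of the plasminogen activators changed in place of 11. On log2(FPKM + 1), which understates changes of low genes, Plaur had 0.65 and Plau 0.75 in place of 4.29 and 2.66. Serpinb1a also missed the threshold in limma voom with quality weights (adjusted p = 0.0728) and without a filter (edgeR adjusted p = 0.0507), and Cst6 missed it with library size only (adjusted p = 0.0578) and without a filter (adjusted p = 0.0550). With PBS 5 and NMDA 3 left out together, Plat (0.43, edgeR adjusted p = 0.0568) and Serpinb1a (0.87, adjusted p = 0.0524) missed it. Why these calls ended was not tested.

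With the replicate block, 2948 genes were higher and 2645 lower, and Plat missed the threshold (0.49, edgeR adjusted p = 0.102). The numbers are not said to pair rats: same-numbered libraries had correlations of their deviations from the group means from -0.19 to 0.153, and only number 1 correlated best with its own number. In the simulation, which changed a far smaller share of genes than the data, most changes of 1 or more on the log2 scale were recovered. The members with few counts could be described by their counts only in part.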

Other observations

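Among inhibitors of other families that stayed below the filter on low counts, 2 had most of their counts in 1 NMDA library. Slpi, a secreted inhibitor of leukocyte elastase, had 10 counts over the PBS libraries and 424 over the NMDA libraries, 233 of them in NMDA 6, the library with the highest neutrophil marker sum (45.2 CPM). Kng1, the kininogen gene, whose product holds cystatin domains, had 8 counts with PBS and 144 with NMDA, 87 of them in NMDA 5. Both were chosen after their values were seen and have no test.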
